A study of Sus scrofa with 6 samples.

Results

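The miRNAs miR-191 and miR-425 were followed through 6 small RNA libraries of piglet jejunum, and the question was whether these neighbours, which are cut from one transcript, moved together when piglets were weaned. The sequences were chosen by name alone: a sequence of the deposited count tables took a known swine miRNA name where it had 20 or more reads over the series and its count in each of the 6 libraries was the same as on one row of the study's table of known miRNAs. This gave 3 members (miR-191, miR-425-5p and miR-425-3p) among 533 distinct sequences, 239 of them with a known name. All libraries came from the jejunum of crossbred barrows (Duroc x Yorkshire x Landrace). Libraries W1, W4 and W7 were made from piglets weaned at 25 d of age and sampled 1, 4 and 7 d later, and libraries S1, S4 and S7 from littermates that stayed with the sow and were sampled at the same ages of 26, 29 and 32 d. Each library was a single pool of equal amounts of total RNA from 4 piglets, so each condition had 1 library. The libraries therefore do not measure the spread between single piglets. The paper also ran RT-qPCR on the separate RNA samples for selected miRNAs of W4 and S4, with 4 biological replicates. Those values were not used here.

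MicroRNAs are cut from hairpin precursors, and either arm of the hairpin can become the mature strand, named 5p or 3p. Bases 2 to 8 of the mature strand, the seed, pair with target mRNAs. In mammals the miR-425 and miR-191 hairpins are made from one primary transcript within the gene DALRD3, so both start from the same RNA, while processing, loading and decay can differ for each. Both miRNAs are made in many tissues, and both have been used as reference miRNAs in PCR work. In the pig gene table of RefSeq (assembly Sscrofa11.1), MIR425 and MIR191 were next to each other on chromosome 13, both within DALRD3, between the genes WDR6 and NDUFAF3. The reads had been aligned to another assembly, and no coordinates are given for this reason.

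The mature sequences are shown because the seed is the part of each partner that pairs with target mRNAs. They are written 5′ to 3′ with the seed in capitals.
miR-191: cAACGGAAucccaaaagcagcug
miR-425-5p: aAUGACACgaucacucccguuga
miR-425-3p: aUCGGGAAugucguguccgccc
The 3 seeds differed, and 0 of the other sequences in the count tables carried any of them. Thus the cluster partners shared a transcript but not a seed. Each member stood on 1 row of its table, so its counts were not split between copies.

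The names were checked against the sequences. In the study's list of aligned reads, of which a shortened copy was used here, miR-191 and miR-425-5p shared at least 15 nt with reads listed under their names. Some of the listed reads started later than the mature sequence, which moves the seed. Only exactly aligned reads that began at base 1, 2 or 3 of a member were looked for, and 1 read per start is shown. For miR-191 each of these starts was found, and for miR-425-5p only base 2. The reads are written in DNA letters with their bases 2 to 8 in capitals. Other starts were not looked for.
miR-191 from base 1: cAACGGAAtcccaaaagcagctg
miR-191 from base 2: aACGGAATcccaaaagcagctg
miR-191 from base 3: aCGGAATCccaaaagcagctg
miR-425-5p from base 2: aTGACACGatcactcccgttga
The count tables hold 1 sequence per member, and how many of the counted reads had these shifted starts was not analysed here. No exactly aligned read of miR-425-3p was found in the shortened copy, so its name rested on its counts. As a further description of that name, a run of 7 bases in miR-425-3p (bases 11 to 17) was the reverse complement of a run in miR-425-5p, shown in capitals.
miR-425-5p: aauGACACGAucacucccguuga
miR-425-3p: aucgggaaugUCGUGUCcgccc
A complementary run of 7 or more bases to miR-425-5p was found in 3 of the other 238 known sequences (1.26%), miR-425-3p among them. The forward PCR primer that the study designed for miR-425 held the first 16 bases of miR-425-5p, in capitals here, and therefore reads the 5p arm.
forward primer of miR-425: tgcggAATGACACGATCACTC

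The counts of a library summed to between 4441416 (W7) and 5373146 (S7). These sums were 94.5% (W4) to 109% (S7) of the library's clean reads and exceeded them in S1, W1, S4 and S7, so they cannot hold each read once, and how the surplus arose is not known here. Counts, CPM and counting intervals below take each count as 1 read. The 3 most abundant miRNAs (miR-192 and miR-215, both epithelial, and miR-143-3p of smooth muscle) took 53.5% of the reads in W4 and up to 72.8% in S4. Read counts scaled to the library total (CPM) depend, for every other miRNA, on that share, so levels are given as CPM and after TMM scaling, which sets libraries to each other by the bulk of the miRNAs. The choice moved the median log2 ratio over all miRNAs considered from 0.28 to -0.04 for W1 against S1, from 0.83 to -0.01 for W4 against S4, and from 0.21 to -0.06 for W7 against S7. Markers were summed to check the tissue. The 5 epithelial miRNAs of 10 listed that carried a named sequence summed to 542545 to 578984 CPM in the suckling libraries and 225470 to 478223 CPM in the weaning libraries, and after TMM scaling to 588853 to 699869 and 158295 to 461828. The other 5, miR-375 and miR-141 with its miR-200 relatives, carried no named sequence here. The leukocyte list, of which 5 of 6 miRNAs had a sequence (all but miR-223), summed to 2432 to 4227 CPM in suckling and 3256 to 6628 CPM in weaning libraries, and to 3049 to 4588 and 3144 to 4929 after TMM scaling. The smooth muscle list (5 of 5) summed to 159268 to 204951 CPM and 201703 to 330279 CPM, and to 172862 to 256925 and 194787 to 296194 after TMM scaling. The red blood cell list (3 of 3) summed to 451 to 604 CPM in suckling and 455 to 622 CPM in weaning libraries, and after TMM scaling to 546 to 655 and 408 to 458, lower in every weaning library. The endothelial list (2 of 2) summed to 3849 to 5725 CPM in suckling and 5890 to 7520 CPM in weaning libraries, higher in every weaning library, and to 4825 to 6214 and 5280 to 5894 after TMM scaling. Of these lists, only the epithelial one lay apart between the groups in the same direction on both scales. No marker with a sequence was at 0 in all libraries. Single miRNAs weighed heavily in these sums. Of 28772629 reads in the series, miR-192 had 8235181, miR-143-3p 6491794, miR-145-5p 54258 and miR-142-5p 103801. The smooth muscle sum was thus mostly miR-143-3p, and the leukocyte sum mostly miR-142-5p. In bulk tissue, fewer cells of a type and less RNA per cell cannot be told apart, and the part that these shifts had in the results on the cluster was not tested.

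miR-191 was by far the most abundant strand of the cluster, the 9th to 14th most abundant sequence of its library. It had 43714, 48301 and 65503 reads in S1, S4 and S7 and 57396, 74215 and 74822 reads in W1, W4 and W7. Its CPM were 9730, 9092 and 12191 in S1, S4 and S7, against 12346, 16478 and 16846 in W1, W4 and W7. The weaning libraries were all above the suckling libraries on this scale, but W1 was only 1.01-fold above S7 and their counting intervals overlapped. Mean CPM were 15223 ± 2499 in weaning and 10338 ± 1636 in suckling libraries (SD, n = 3 each; exact permutation test, two-sided, p = 0.1, the smallest that 3 against 3 can give). Of 290 sequences, 44.5% were likewise higher in every weaning than in every suckling library by CPM, and 3.1% lower, so this separation was common among the sequences.
After TMM scaling the separation of miR-191 was gone. Its scaled CPM were 11762, 11398 and 13231 in S1, S4 and S7 and 11922, 11569 and 15108 in W1, W4 and W7. W7 was the highest, and S7 was above both W1 and W4. Means were 12866 ± 1949 in weaning and 12130 ± 971 in suckling libraries (SD, n = 3 each; exact permutation test, two-sided, p = 0.6).

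miR-425-5p, the main strand of its hairpin, was far less abundant, between the 84th and the 99th place in the libraries. Its counts were 891, 893 and 1027 reads in S1, S4 and S7 and 840, 1180 and 1002 reads in W1, W4 and W7. Its CPM were 198, 168 and 191.1 in S1, S4 and S7 and 181, 262 and 226 in W1, W4 and W7. W1 lay among the suckling libraries, and W4 was the highest. Among the 4 lowest libraries (S4, W1, S7 and S1, in rising order) the counting interval of each overlapped that of the next. The interval of S4 (157 to 179 CPM) was nevertheless below those of S7 (180 to 203 CPM) and S1 (186 to 212 CPM). Mean CPM were 223 ± 40.7 in weaning and 186 ± 15.8 in suckling libraries (SD, n = 3 each; exact permutation test, two-sided, p = 0.3).
After TMM scaling the order of the groups turned. The scaled CPM of miR-425-5p were 240, 211 and 207 in S1, S4 and S7 and 174, 184 and 202 in W1, W4 and W7. Every weaning library was below every suckling library, although W7 and S7 differed by less than their counting intervals. Means were 187 ± 14.2 in weaning and 219 ± 17.8 in suckling libraries (SD, n = 3 each; exact permutation test, two-sided, p = 0.1, again the smallest possible). The same lack of overlap was found, after TMM scaling, with weaning lower in 10% and with weaning higher in 8.28% of the 290 sequences.

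miR-425-3p, the lesser strand, had 72, 54 and 76 reads in S1, S4 and S7 and 65, 105 and 86 reads in W1, W4 and W7. Its CPM were 16.0, 10.2 and 14.1 in S1, S4 and S7 and 13.98, 23.3 and 19.4 in W1, W4 and W7. S4 was the lowest and W4 the highest library, and no neighbours in the order differed beyond their counting intervals. Libraries further apart did: the interval of S4 (7.8 to 13.3 CPM) was below those of W7 (15.7 to 23.9 CPM) and W4 (19.3 to 28.2 CPM). Means were 18.9 ± 4.68 CPM in weaning and 13.4 ± 2.99 CPM in suckling libraries (SD, n = 3 each; exact permutation test, two-sided, p = 0.3). With TMM scaling they were 15.7 ± 2.01 and 15.8 ± 3.34 (p = 1 by the exact permutation test).

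**Figure D1:**
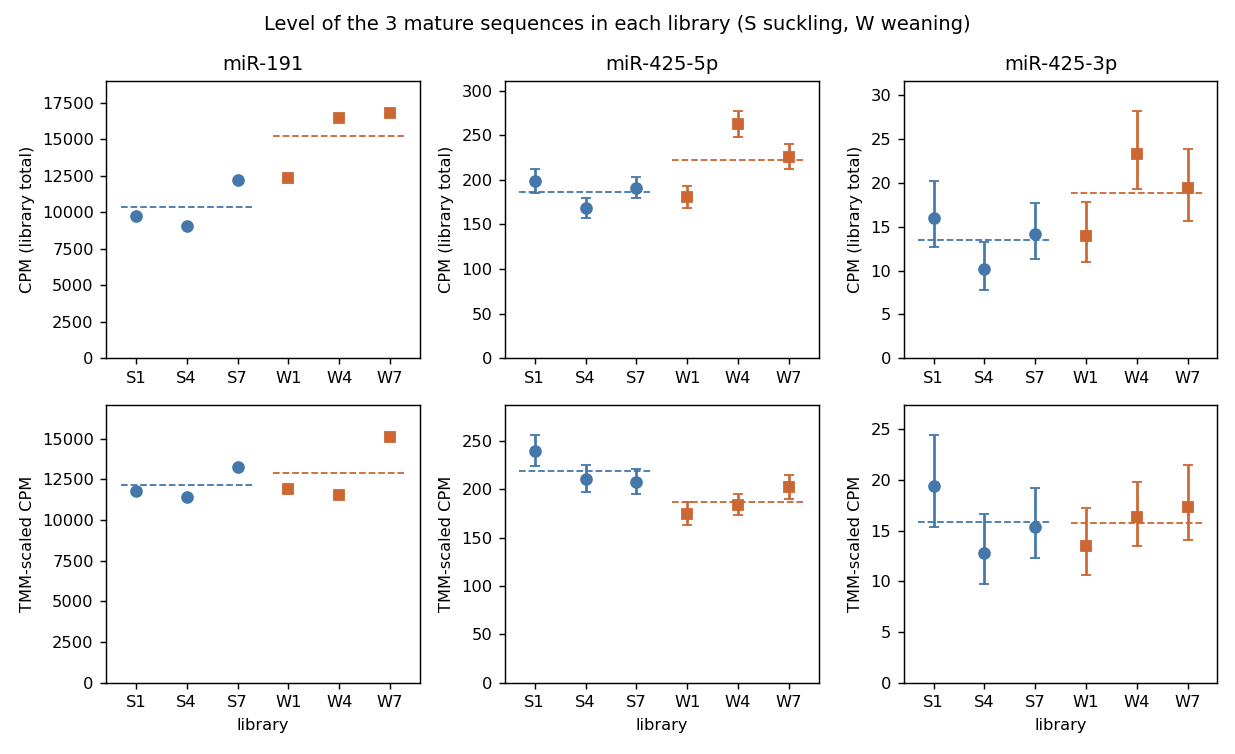
Level of miR-191, miR-425-5p and miR-425-3p (columns) in each library, in CPM of the library total (upper row) and in TMM-scaled CPM (lower row). Points are libraries, bars 95% counting intervals and dashed lines group means (n = 3). miR-191 is higher in every weaning library by CPM (12346 to 16846 against 9092 to 12191) but not after TMM scaling, while miR-425-5p is lower in every weaning library only after TMM scaling (174 to 202 against 207 to 240).

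In each pair of libraries of the same day, the members were set against all miRNAs with at least 50 reads in the pair. A pair holds 1 library a condition, so there is no test, and the 95% intervals given cover counting error only. For W1 against S1, miR-191 had a log2 ratio of 0.34 (0.33 to 0.36) by CPM and 0.020 after TMM scaling. miR-425-5p had -0.13 (-0.27 to 0.0032) by CPM and -0.46 after TMM scaling. The partners thus lay on opposite sides of the median miRNA, miR-191 at place 94 and miR-425-5p at place 196 from the top of 229, and these places do not depend on the scaling. miR-425-3p stood near its sister strand, at place 203, with a log2 ratio of -0.20 (-0.70 to 0.31) by CPM.

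For W4 against S4, miR-191 had a log2 ratio of 0.86 (0.84 to 0.87) by CPM and 0.021 after TMM scaling. miR-425-5p had 0.64 (0.51 to 0.77) by CPM and -0.20 after TMM scaling. Their places, 110 and 157 of 244, were again on either side of the median. miR-425-3p was the one strand above it by a wider margin, at place 49, with 1.20 (0.71 to 1.70) by CPM and 0.36 (-0.13 to 0.86) after TMM scaling.

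For W7 against S7, miR-191 had a log2 ratio of 0.47 (0.45 to 0.48) by CPM and 0.19 after TMM scaling, at place 73 of 237. miR-425-5p had 0.24 (0.11 to 0.37) by CPM and -0.036 after TMM scaling, at place 117, next to the median. miR-425-3p had 0.45 (-0.01 to 0.92) by CPM, at place 78.

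At a fold of at least 2 in CPM, 1 member in 1 pair differed, miR-425-3p in W4 against S4, which was 2.29-fold higher in W4 (with the study's clean reads as the total it was just under 2-fold, at a log2 ratio of 0.9985). In that pair 33.6% of all 244 miRNAs were at least 2-fold higher in W4 by CPM and 4.1% after TMM scaling, where miR-425-3p was 1.28-fold higher. No member reached 2-fold in W1 against S1, where 6.11% of miRNAs were that much higher by CPM and 2.18% after TMM scaling. The same held in W7 against S7, with 6.75% and 3.38% of all miRNAs. These shares count the higher side only. After TMM scaling, 9 of 229 miRNAs were at least 2-fold lower in W1 than in S1, against 5 higher. It was 22 of 244 against 10 for W4 and S4, and 19 of 237 against 8 for W7 and S7. By CPM 6, 7 and 9 miRNAs were that much lower in W1, W4 and W7.

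**Figure D2:**
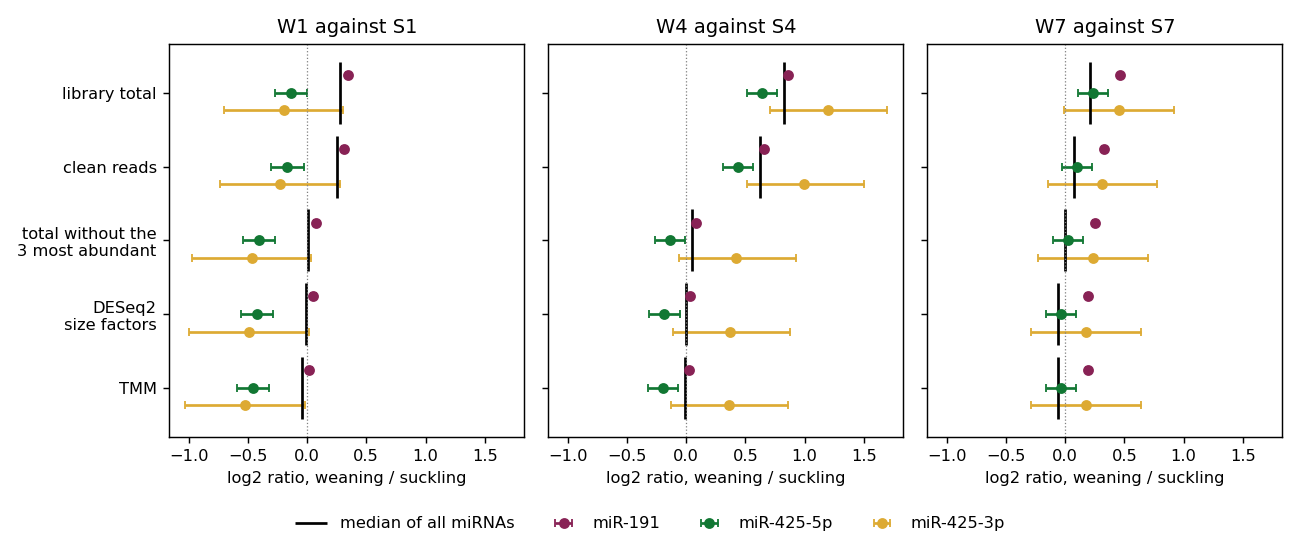
Log2 ratio of each member in W1 against S1, W4 against S4 and W7 against S7 (panels) under 5 scalings (rows), with 95% counting intervals as bars. The black line is the median of all miRNAs with at least 50 reads in the pair. A scaling shifts the members and the median by the same amount, so places relative to the median cannot differ between the 5. In W1 against S1 miR-191 lies right of the median and miR-425-5p left of it.

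Over the groups, edgeR's quasi-likelihood test called 0 of 290 sequences between the 3 weaning and 3 suckling libraries (0%; 44 had an unadjusted p under 0.05, and DESeq2 called 10). None of the members passed. The log2 fold change, weaning against suckling, was 0.085 (SE 0.14) for miR-191, with an edgeR adjusted p of 0.853. It was -0.23 (SE 0.12) for miR-425-5p, with an edgeR adjusted p of 0.470. It was -0.0027 (SE 0.22) for miR-425-3p, with an edgeR adjusted p of 0.996. These p-values were adjusted by Benjamini-Hochberg over all sequences tested.

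Each weaning library was also set against the 3 suckling libraries in edgeR, which assumes that the weaning pool varies as the suckling pools do. These 3 comparisons share their suckling libraries. For miR-425-5p in W4 the log2 fold change was -0.20 with TMM and 0.50 with the library total. In W1, where 0% of sequences were called (17 of 268 at an unadjusted p under 0.05, and 0 by DESeq2), miR-425-5p had a log2 fold change of -0.33 (SE 0.17; edgeR adjusted p 0.637) and miR-191 one of -0.025 (SE 0.13; edgeR adjusted p 0.971). In W4, where 2.23% were called, miR-191 had -0.016 (SE 0.14; edgeR adjusted p 0.964). With the library total in place of TMM it had 0.67 (edgeR adjusted p 0.0263), but 51.7% of all sequences were called higher in W4 on that scale. In W7, where 1.89% were called, miR-191 had 0.40 (SE 0.13; edgeR adjusted p 0.192) and miR-425-5p had -0.028 (SE 0.16; edgeR adjusted p 0.963). Without S7, the W7 value of miR-191 was 0.46 with an edgeR adjusted p of 0.00467, in a fit of 1 library against 2 with a smaller SE (0.095), which called 53 of 257 sequences.

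The partners can be compared within a library without any scaling. One read of miR-425-5p went with 49.1 reads of miR-191 in S1 (95% counting interval 45.9 to 52.4) and with 68.3 in W1 (63.8 to 73.1). In S4 the ratio was 54.1 (50.6 to 57.8), and in W4 it was 62.9 (59.4 to 66.6). In S7 it was 63.8 (60.0 to 67.8), and in W7 it was 74.7 (70.2 to 79.5). On each day the ratio was higher in the weaning library, and beyond counting error, but W4 was below S7, so the groups overlapped.

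The log2 ratio of miR-191 exceeded that of miR-425-5p by 0.48 (0.34 to 0.62) on day 1, by 0.22 (0.09 to 0.34) on day 4 and by 0.23 (0.10 to 0.35) on day 7, or 1.39-, 1.16- and 1.17-fold. Over the groups, the mean log2 of reads of miR-191 per read of miR-425-5p was 6.10 ± 0.12 in weaning and 5.79 ± 0.19 in suckling libraries (SD, n = 3 each). The difference of 0.31, or 1.24-fold, did not pass the exact permutation test (two-sided, p = 0.2, where 0.1 is the smallest possible). Leaving out S1 lowered it to 0.22 and leaving out S7 raised it to 0.41. With both arms of miR-425 as the partner it was 0.29 (exact permutation test, p = 0.2). With miR-425-3p alone it was 0.071 (exact permutation test, p = 0.8), and the sign turned between days, at 0.54 (0.06 to 1.02) on day 1, -0.34 (-0.81 to 0.13) on day 4 and 0.014 (-0.43 to 0.46) on day 7.

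The arms of miR-425 were read unequally in every library. The 5p arm made up 92.5% of the miR-425 reads in S1, 94.3% in S4 and 93.1% in S7. It made up 92.8% in W1, 91.8% in W4 and 92.1% in W7. In reads of 5p per read of 3p this was 12.4, 16.5 and 13.5 in S1, S4 and S7 and 12.9, 11.2 and 11.7 in W1, W4 and W7. The widest gap was between S4 (Wilson 95% interval 92.6% to 95.6%) and W4 (90.2% to 93.2%), whose intervals overlapped. Taken as a difference of log2 ratios, 5p was behind 3p by 0.56 in W4 against S4 (interval of 5p minus 3p -1.05 to -0.07), which rested on 54 and 105 reads of the 3p arm. On day 1 the difference was 0.06 (-0.44 to 0.57) and on day 7 it was -0.21 (-0.68 to 0.25).

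**Figure D3:**
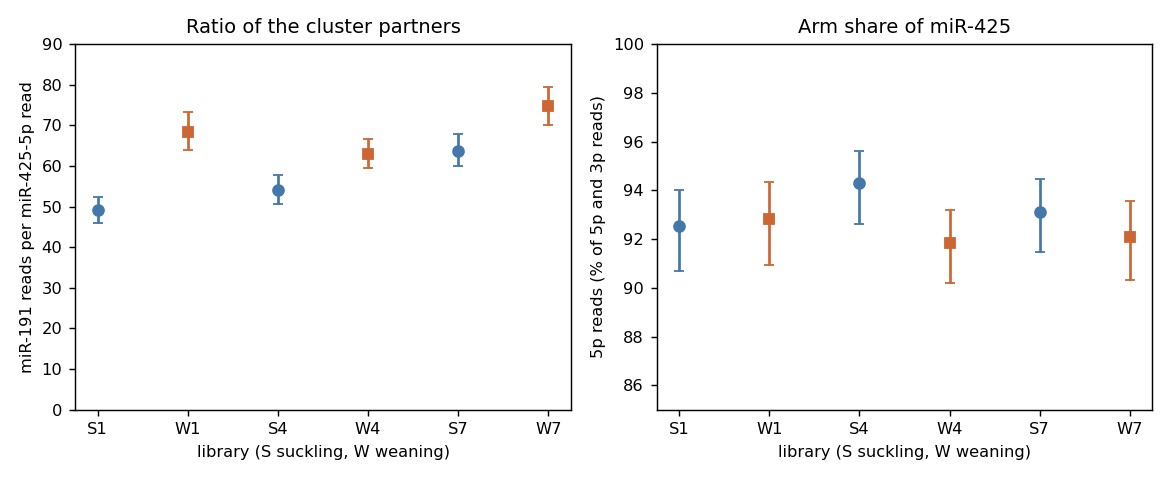
Left, reads of miR-191 per read of miR-425-5p in each library, with 95% counting intervals. Right, 5p reads as a percentage of the 5p and 3p reads of miR-425, with Wilson 95% intervals, on an axis that does not start at 0. The ratio is higher in the weaning library of each day (68.3, 62.9 and 74.7 against 49.1, 54.1 and 63.8), and the 5p share lies between 91.8% and 94.3%.

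Other listed cluster partners gave a scale for these differences. Of 25 listed pairs of cluster partners, 22 had enough reads. For miR-16, miR-29b and miR-30c-5p a single locus was listed, but counts are per mature sequence and do not separate loci. Their pairs may thus hold reads that did not come from the shared transcript. On day 1 the gap of 0.48 between miR-191 and miR-425-5p was the 5th largest of the 22 (median 0.23). On days 4 and 7 its gaps of 0.22 and 0.23 were both in place 14 (medians 0.24 and 0.34). Averaged over the 3 days its size, 0.31, was near the median of 0.33. In size alone, the gap of this cluster thus lay near the middle of the list. The largest mean gaps were in pairs with a partner of few reads, such as miR-374b-5p (552 reads in all) and miR-29b (808). Counting error is larger in such pairs than for miR-191 and miR-425-5p (363951 and 5833 reads), and the places do not correct for it.

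The gap had one sign on all 3 days in 4 of 22 pairs, namely miR-191 and miR-425-5p, miR-182 and miR-183, miR-20a and miR-19a, and miR-192 and miR-194b-5p. On every day it was beyond counting error in 2 of these, miR-191 and miR-425-5p and the epithelial pair miR-192 and miR-194b-5p, whose gaps were 0.21, 0.25 and 0.33. The mean gap between weaning and suckling libraries was the 4th largest in size of 22 for miR-191 and miR-425-5p. Pairs were chosen with earlier results known and share the 6 libraries, so these places are a description.

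**Figure D4:**
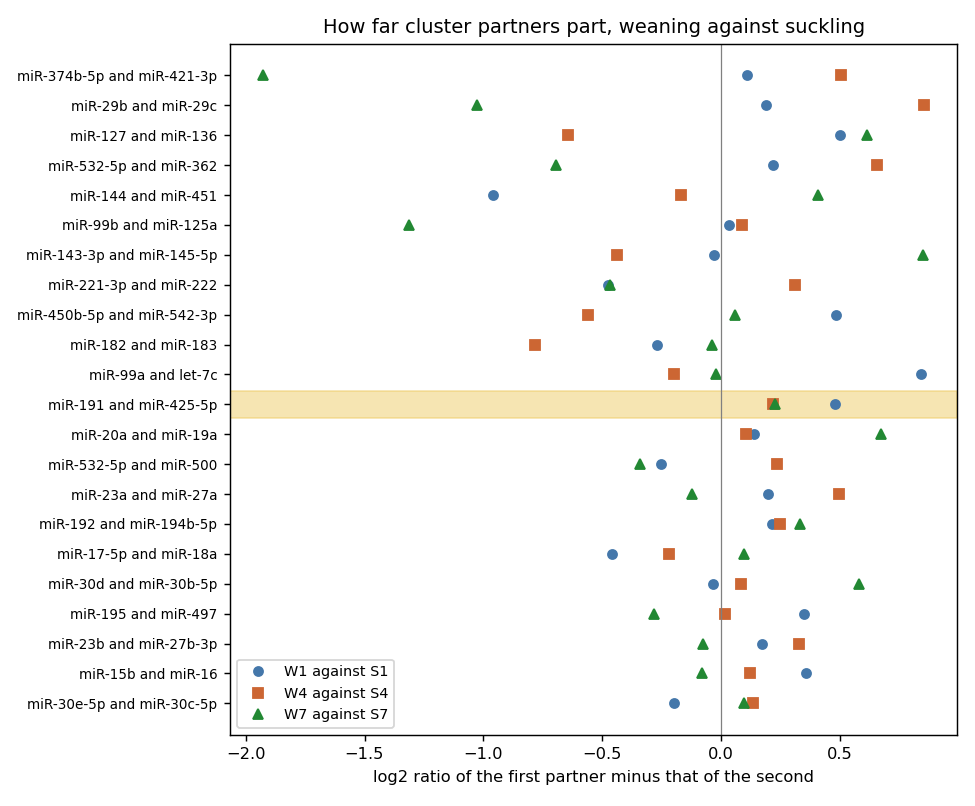
Log2 ratio (weaning to suckling) of the first partner minus that of the second, for 22 listed pairs of cluster partners, ordered by the mean size over 3 days. Circles, squares and triangles are days 1, 4 and 7, and the shaded line is miR-191 and miR-425-5p, whose 3 values (0.48, 0.22 and 0.23) lie right of 0.

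Across the 6 libraries, the TMM-scaled levels of miR-191 and miR-425-5p were almost unrelated, with a Pearson r of 0.03 on log2 values. The median r over the 22 cluster pairs was 0.45, and 15 pairs had a higher r than this one. Among 153 other known miRNAs with at least 600 reads, miR-425-5p held place 69 in likeness to miR-191, and miR-191 place 76 in likeness to miR-425-5p. By CPM the r of the partners was 0.83, but the median miRNA then had an r of 0.81 with miR-191 and 0.78 with miR-425-5p. The strands of one hairpin were closer, with an r of 0.52 between miR-425-5p and miR-425-3p after TMM scaling and 0.97 by CPM, against 0.33 and 0.84 between miR-191 and miR-425-3p. These values rest on 6 libraries that share their scaling and are given without a test.

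The miRNAs most like each partner differed. Closest to miR-191 after TMM scaling were miR-222 (r = 0.86), miR-181a (0.84), miR-1307 (0.77), miR-769-5p (0.75) and miR-146a-5p (0.74). miR-181a and miR-146a-5p are known from lymphocytes and from inflammatory signalling, respectively. A link of miR-191 to either was not tested. Closest to miR-425-5p were miR-30e-5p (r = 0.84), miR-27b-3p (0.84), miR-186 (0.82), miR-28-5p (0.82) and miR-30a-5p (0.81). The lists had 0 names in common.

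Because both miRNAs are used as references in PCR work, their spread over the 6 libraries was also described. On log2 TMM-scaled levels the SD was 0.157 for miR-191 and 0.160 for miR-425-5p, places 53 and 54 from the steadiest of 154 known miRNAs (median SD 0.202). It was 0.212 for miR-425-3p. Of 18 other reference miRNAs listed, 16 had a value, with a median SD of 0.151, and 9 of the 16 were steadier than either partner. The steadiest were miR-320 (0.0772), miR-186 (0.0777), let-7d-5p (0.0784) and let-7a (0.0789). Then came miR-30e-5p (0.1003), miR-151-5p (0.112), miR-28-5p (0.124), miR-26a (0.149) and miR-361-5p (0.153). More variable were miR-152 (0.166), miR-151-3p (0.176), miR-16 (0.229), miR-107 (0.233), miR-103 (0.236), miR-423-3p (0.245) and miR-423-5p (0.429). miR-93 and miR-25 were on the list and had no value here.

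By CPM the partners lay apart. The SD was 0.371 for miR-191, place 80 of 154, and 0.231 for miR-425-5p, place 13. Of the 16 reference miRNAs, 14 were then steadier than miR-191 and 3 steadier than miR-425-5p. After TMM scaling the SDs of the partners were too close to order them.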

How the data were processed

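Jejunal small RNA was sequenced from 6 pools. The authors trimmed the reads and aligned them to a draft swine genome without mismatches (Bowtie 0.12.2 in the submitters' processing notes) and to miRBase. The tables they deposited hold whole-number counts per mature sequence, not normalized, whose sums exceed the clean reads in part of the libraries. The step from alignment to count is not given here by any source. The study's FPKM values and t-test were not repeated. Counts were named through the study's table of known miRNAs, as described above, and a repeated sequence was counted once.

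Ratios used CPM with exact conditional binomial intervals, and alternatives with 4 other scalings. Sequences that reached 10 reads in 3 or more libraries were tested with edgeR 4.0.16 (R 4.3.3; threshold 0.05), with DESeq2 1.42.0 as alternative, and single values by exact permutation (scipy 1.17.1). Correlations and SDs used log2(CPM + 1). Intervals cover counting error only, since PCR copies were not marked, and p-values measure only the spread between pools. The pools of a group were taken on different days. Their spread and the SDs therefore also hold differences of day and age, which cannot be told apart from differences between pools. A library's number marks the day that a weaning and a suckling pool shared, which pairs them by design; deviations of same-day libraries from their group means correlated at 0.04, -0.21 and 0.0020 on days 1, 4 and 7 over 290 sequences. Named were the members, the 5 miRNAs most like each main strand, listed reference miRNAs and listed cluster pairs. Members and lists were chosen with earlier results of these data known.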

Additional observations from a re-analysis of the deposited data

How the results depend on the processing

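The log2 ratios by CPM depended on the scaling. In W1 against S1, miR-191 had 0.34 by CPM, 0.31 with the study's clean reads as total, 0.073 without the 3 most abundant miRNAs, 0.053 with DESeq2 size factors and 0.020 with TMM; in W4 against S4 these values were 0.86, 0.66, 0.085, 0.035 and 0.021, and in W7 against S7 0.47, 0.33, 0.25, 0.19 and 0.19. For miR-425-5p the values without the 3 most abundant, with DESeq2 and with TMM were -0.40, -0.42 and -0.46 in W1 against S1. With clean reads and then these 3 scalings they were 0.44, -0.13, -0.18 and -0.20 in W4 against S4, and 0.10, 0.021, -0.036 and -0.036 in W7 against S7. For miR-425-3p in W4 against S4 they were 0.9985 (under 2-fold, against 2.29-fold by CPM) with clean reads and 0.42, 0.37 and 0.36 without the 3 most abundant, with DESeq2 and with TMM. In edgeR with the library total, weaning against suckling gave 0.56 for miR-191 (edgeR adjusted p 0.0915), against 0.085 with TMM. It gave 0.26 for miR-425-5p and 0.49 for miR-425-3p. On that scale W1 gave 0.26 for miR-191 and 0.059 for miR-425-3p. W4 gave 0.67 for miR-191 and 0.50 for miR-425-5p, and W7 gave 0.70 for miR-191 and 0.28 for miR-425-5p. DESeq2 gave 0.011 for miR-425-3p in weaning against suckling and 0.0058 for miR-191 in W1, and no filter on low counts gave 0.085 for miR-425-3p. The paired fit, with day as replicate block, gave 0.0094 for miR-425-3p (edgeR adjusted p 0.993), and the difference of the partners' log2 ratio stayed 0.31 (exact permutation within days, p = 0.25, the smallest possible); it changed no call of a member.

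Leaving out 1 library at a time, weaning against suckling ranged from -0.035 to 0.22 for miR-191 (negative without W7), -0.28 to -0.13 for miR-425-5p and -0.080 to 0.16 for miR-425-3p (positive without S1, W1 or W4). W1 ranged from -0.061 to 0.063 for miR-191, -0.35 to -0.25 for miR-425-5p and -0.35 to -0.053 for miR-425-3p; W4 from -0.067 to 0.057, -0.23 to -0.13 and -0.035 to 0.27; W7 from 0.32 to 0.46, -0.097 to -0.0013 and 0.051 to 0.35. The partner difference ranged from 0.22 to 0.41, and was 0.35 without day 4, an alternative chosen after seeing the data. The number of sequences called ranged from 0 to 12 in weaning against suckling, 0 to 9 in W1, 0 to 43 in W4 and 0 to 53 in W7; DESeq2 called 10, 0, 14 and 25, and edgeR with the library total 1, 0, 144 and 17. The causes were not tested. DESeq2 gave no adjusted p for 58 of 269 sequences in W4 and for 11 of 264 in W7, so its counts there rest on fewer sequences than those of edgeR. miR-425-3p was removed by a filter of at least 100 reads, and with at least 6000 reads miR-425-5p had too few for a likeness value. The 54 to 105 reads of miR-425-3p set wide intervals, and depth did not limit miR-191.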
